A study of Mus musculus with 16 samples.

Results

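Lung-Ctr tumour organoids were set against normal organoids, here called the normal comparator, in 5 of the 16 bulk RNA-seq libraries of a mouse (C57BL/6) organoid series. Organoids are cultures in which cells grow as small tissue-like bodies. The members were chosen by title and column header: the 2 libraries titled Lung-Ctr, and the 3 normal libraries deposited beside the Ctr tumour organoids, joined to the first by gene symbol. Lung-Ctr organoids have the genotype TMP, which combines Trp53-/- with Myc and with sgCdkn2a, a guide RNA against Cdkn2a, and they come from tumours that grew in recipient mice after grafting at the nasopharynx. Their sample descriptions read primary, whereas the design text speaks of primary and metastasized tumour organoids, so the Lung prefix is used here as a title and not as a site of growth. The comparator is labelled untreated, with no engineered allele listed. Used beside them are 3 libraries of Ctr tumour organoids, also TMP and described as primary, and 3 each of untreated Normal_lung and Normal_nasopha organoids; a joint fit adds the TMP organoids with LMP1, a latent membrane protein of Epstein-Barr virus, labelled Lung-LMP1 (3 libraries) and LMP1 (2 libraries). All 5 libraries share the strain and the preparation of polyadenylated RNA. The labels do not say how Myc was introduced, whether a tumour line was 1 clone, how old the mice were, or whether replicates came from separate animals or cultures, so each p-value covers the spread among the libraries alone, which may be technical. The question was which genes and gene groups separated these tumour organoids from normal epithelium grown in the same format.

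The deleted or targeted genes belong to linked controls of cell growth. Trp53 encodes p53, a transcription factor that halts the cell cycle or starts apoptosis after damage, and Cdkn2a encodes both an inhibitor of cyclin-dependent kinases, which keeps RB active, and Arf, which shields p53 from Mdm2. Myc with its partner Max binds E-box sequences and drives growth, including the making of ribosomes. The lining of the nasopharynx, a common site of origin of carcinoma linked to Epstein-Barr virus in people, is a mix of basal, squamous, ciliated and secretory epithelial cells.

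The 3 comparator columns are headed as normal lung, although they stand in a comparison named for nasopharynx, and their counts go with nasopharynx. Of genes with a count in either library, 10.4%, 11.8% and 10.9% had exactly the same count in comparator replicates 1, 2 and 3 as in the Normal_nasopha library of the same number, against 1.1% to 1.95% for every other pairing of a comparator library with a normal library. Sftpc, the surfactant protein of alveolar cells, stood at 134, 31.6 and 30.3 CPM (counts scaled to a common library size with TMM factors) in the comparator, whereas Normal_lung averaged 44880 CPM by total count. The word comparator is kept below because the header and the counts point to different tissues.

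Total counts were 14360362 and 15053411 in Lung-Ctr, against 16573082, 17631461 and 16627986 in the comparator, so 3 counts in 1 library equal 0.17 to 0.209 CPM. Epithelial genes were high in all 5 libraries: Epcam, an adhesion protein of epithelium, had 1675 and 716 CPM in Lung-Ctr and 532, 366 and 639 CPM in the comparator. Defining markers of leukocytes, endothelium and fibroblasts were low. Ptprc, carried by all leukocytes, had 0 and 0.0665 CPM in Lung-Ctr and 1.09, 0 and 0.302 CPM in the comparator, Pecam1 of endothelium stayed at or below 0.484 CPM in every library, and Col1a1 of fibroblasts at or below 1.15 CPM. The 15 leukocyte markers summed to 7.9 and 19.2 CPM in Lung-Ctr and to 33.2, 292 and 107 CPM in the comparator, of which Cd68, a lysosomal protein that epithelium can also carry, made up 7.01 and 18.4 CPM in Lung-Ctr and 14.2, 290.2 and 98.9 CPM in the comparator. Fibroblast markers summed to 67.9 and 101.9 CPM in Lung-Ctr and 108.9, 20.4 and 100.7 CPM in the comparator, mostly from Fbln1, a matrix protein that made up 67.7 and 101 CPM in Lung-Ctr and 99.1, 11.2 and 80.8 CPM in the comparator. Neural markers summed to 5.01 and 4.92 CPM in Lung-Ctr and 59.9, 17 and 20.4 CPM in the comparator, of which Tubb3, a tubulin, made up 0.824 and 3.59 CPM in Lung-Ctr and 52, 8.05 and 9.31 CPM in the comparator. Of these marker lists, 5 fibroblast, 5 leukocyte, 2 endothelial and 5 neural genes could be tested and none was called by edgeR. At an unadjusted p under 0.05 there were 3, 2, 1 and 3 lower and none higher, and DESeq2 called 4, 2, 0 and 3 lower. Over all genes, 16.3% were lower at that p and 13.7% by DESeq2. Because these are bulk libraries, fewer cells of a type and less RNA per cell cannot be told apart.

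The groups also differed in sex. Ddx3y, a Y-linked RNA helicase, had 115 and 128 CPM in Lung-Ctr and 0 counts in all 3 comparator libraries, at least 2040-fold higher against a floor of 3 counts over the group (edgeR adjusted p = 0.0229). Xist, the RNA that coats the inactive X chromosome of female cells, had 0.344 and 1.06 CPM in Lung-Ctr, against 1096, 1130 and 1044 CPM in the comparator (log2 fold change -10.58, SE 0.70, edgeR adjusted p = 0.0179). The log2 fold change of Xist was -9.99 on leaving out Lung-Ctr replicate 1 and -11.60 on leaving out replicate 2. Male Lung-Ctr libraries therefore face female comparator libraries, and sex, genotype and tumour growth cannot be told apart in this comparison.

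Of 13523 genes tested with edgeR's quasi-likelihood test, 168 (1.24%) passed a Benjamini-Hochberg adjusted p under 0.05, of which 66 (0.488%) were higher and 102 (0.754%) lower in Lung-Ctr. The median log2 fold change of all genes tested was -0.04. The number of calls rested on few libraries. Without comparator replicate 1 there were 436 genes higher and 355 lower, without Lung-Ctr replicate 2 there were 45 higher and 18 lower, and without Lung-Ctr replicate 1, comparator replicate 2 or comparator replicate 3 there were none. All 168 genes kept their direction in each of these 5 fits. That was near certain in advance, because they were picked on these libraries and each fit reuses most of them. At an unadjusted p under 0.05 stood 12.8% of genes higher and 16.3% lower, and DESeq2 called 9.38% higher and 13.7% lower. In a fit of 13 libraries, which adds the other tumour organoids to estimate the spread, 1858 genes (13.2% of 14096) were higher and 2003 (14.2%) lower, and 167 of the 168 were among them. For 51% of genes the CPM ranges of the groups did not overlap, 24% higher and 27% lower in Lung-Ctr, so that separation of 2 from 3 libraries is common here. Fold changes also ran with GC content (Spearman's rho -0.346 across 13052 genes, which are not independent) and with transcript length (rho 0.227). When each library was corrected for both, 31 genes (0.238%) were called, 15 higher (0.115%) and 16 lower (0.123%), all of them among the 168.

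**Figure D1:**
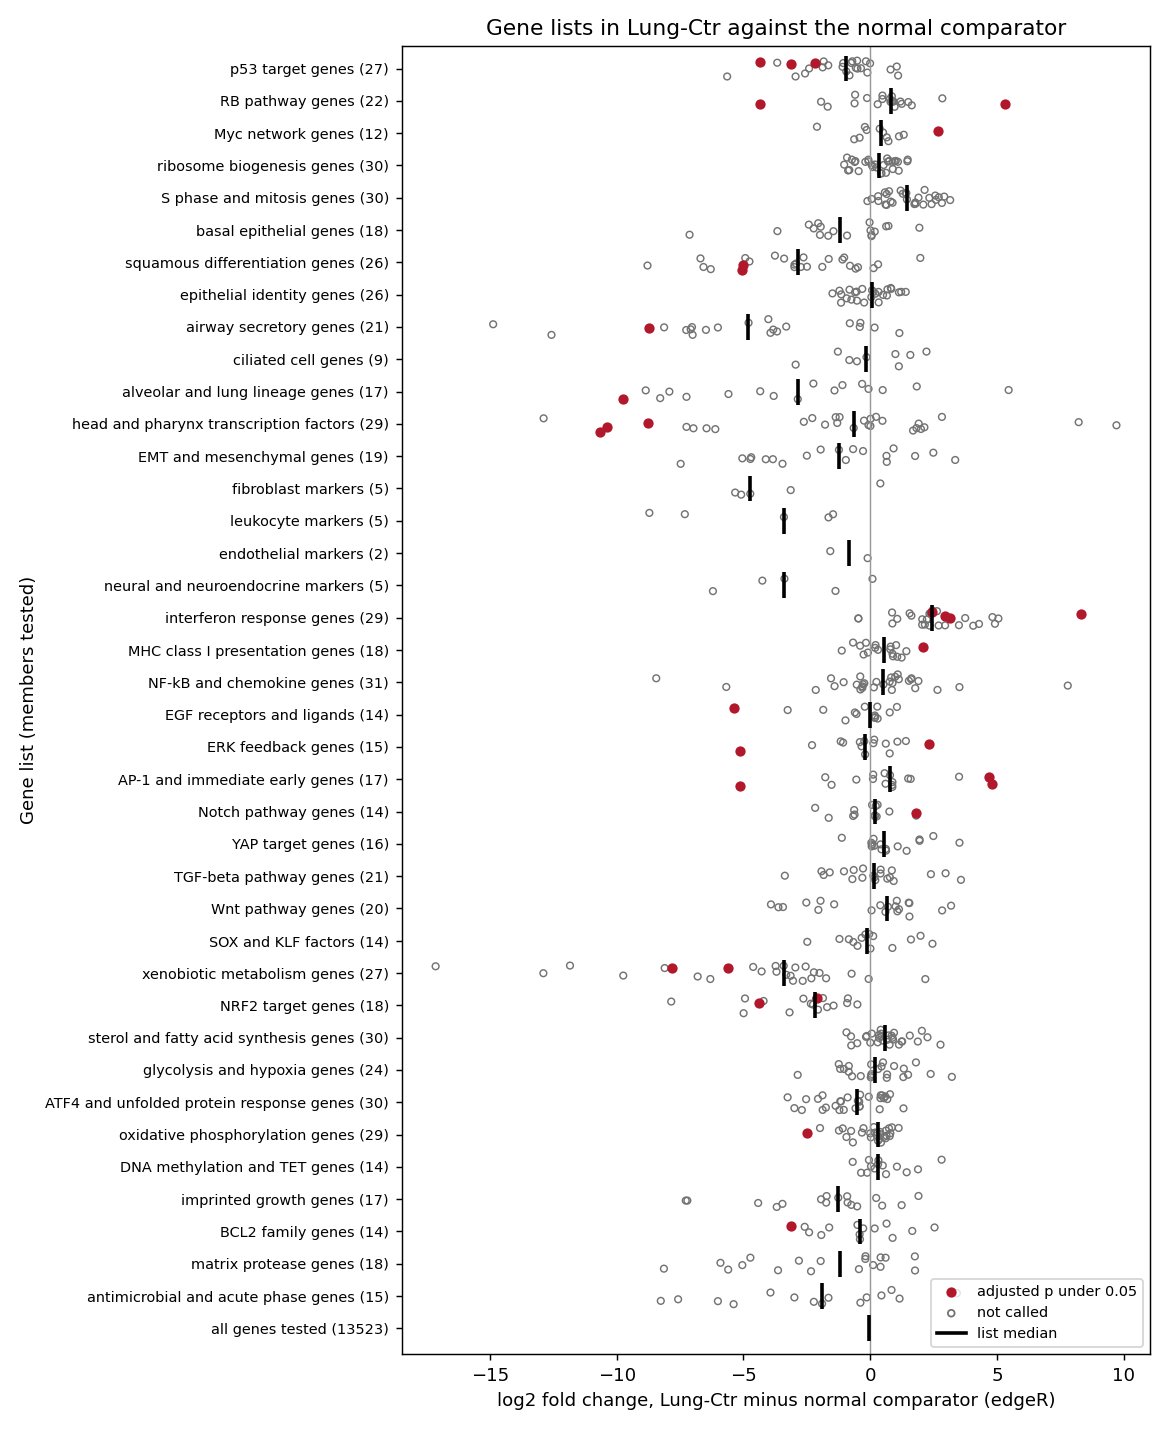
Log2 fold change of Lung-Ctr minus the normal comparator for the tested members of each gene list, 1 dot per gene, with the list median as a bar and genes called by edgeR (adjusted p under 0.05) filled; the lowest row holds the median of all 13523 genes, and a gene with no count in 1 group is drawn at its fitted value, which is no bound. Interferon response genes lie mostly right of 0 with a median of 2.44, and NRF2 target, xenobiotic metabolism, squamous and airway secretory genes mostly left of it.

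The targeted genes came first. Cdkn2a (chr4:89274471-89294653, GRCm38) rose: it had 119.9 and 361 CPM in Lung-Ctr, against 4.85, 5.48 and 7.86 CPM in the comparator, a log2 fold change of 5.31 (SE 0.56, edgeR adjusted p = 0.0316). Myc (chr15:61985391-61990374) rose as well, at 450.4 and 569 CPM in Lung-Ctr and 101, 76.4 and 62.6 CPM in the comparator (log2 fold change 2.67, SE 0.32, edgeR adjusted p = 0.0341). Both calls held after the length and GC correction (adjusted p = 0.0205 and 0.0435), with Cdkn2a at 6.43 on the log2 scale. Cdkn2a also moved with the library left out, to 5.90 without Lung-Ctr replicate 1 and 4.30 without replicate 2. Trp53 (chr11:69580359-69591873) had 57.5 and 86 CPM in Lung-Ctr and 157, 101 and 63.6 CPM in the comparator, ranges that overlapped, and did not pass (adjusted p = 0.412). Counts per whole gene do not show which exons the reads cover, so they check neither a deleted Trp53 allele nor a guide cut in Cdkn2a, and they do not separate an added Myc copy from the mouse's own.

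Among 27 p53 target genes, 3 fell and none rose, against 0.754% and 0.488% of all genes. The calls in every list below stand against the same shares. The lists were not tested as sets, so 1 call is a result for that gene alone. Bax, which opens the mitochondrial outer membrane in apoptosis, had 26.9 and 22.8 CPM in Lung-Ctr and 191, 248 and 218 CPM in the comparator (log2 fold change -3.14, SE 0.31, edgeR adjusted p = 0.0264). Cdkn1a, the cyclin-dependent kinase inhibitor p21, had 25.6 and 12.2 CPM in Lung-Ctr, against 336, 579 and 250.5 CPM in the comparator (log2 fold change -4.36, SE 0.60, edgeR adjusted p = 0.0418). Ccng1, a cyclin G induced by p53, had 74.5 and 83.5 CPM in Lung-Ctr and 358, 367 and 353 CPM in the comparator (log2 fold change -2.19, SE 0.27, edgeR adjusted p = 0.0373). In each of the 3 genes every Lung-Ctr library lay below every comparator library. Aen, a nuclease of the apoptotic response, showed the same separation at 40.5 and 39.4 CPM in Lung-Ctr and 118, 153 and 106 CPM in the comparator but missed the threshold (adjusted p = 0.0538). Over the list 16 of 27 members had lower, not overlapping ranges, against 27% of all genes, and the median log2 fold change was -0.94 beside -0.04 over all genes. The fit of 13 libraries called 12 of the 27 lower and 1 higher, against 14.2% and 13.2% of all genes. With the length and GC correction the median was -1.21 and Ccng1 alone stayed called (adjusted p = 0.0389), while Bax (adjusted p = 0.0734) and Cdkn1a (adjusted p = 0.0678) did not pass. The fold change of Bax was smaller there, at -1.97 on the log2 scale, while that of Ccng1 was larger at -2.81. Bax stood at -2.10 with Normal_nasopha in place of the comparator columns. Those counts were deposited separately, and what part the counting had in this shift was not tested. Without Lung-Ctr replicate 1 the log2 fold change of Cdkn1a was -5.00. Ctr organoids, which share the TMP genotype, had 21.6, 28.3 and 35.4 CPM of Bax and 31.4, 55.5 and 18.8 CPM of Cdkn1a in their 3 libraries, on the scale of the 13-library fit.

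**Figure D2:**
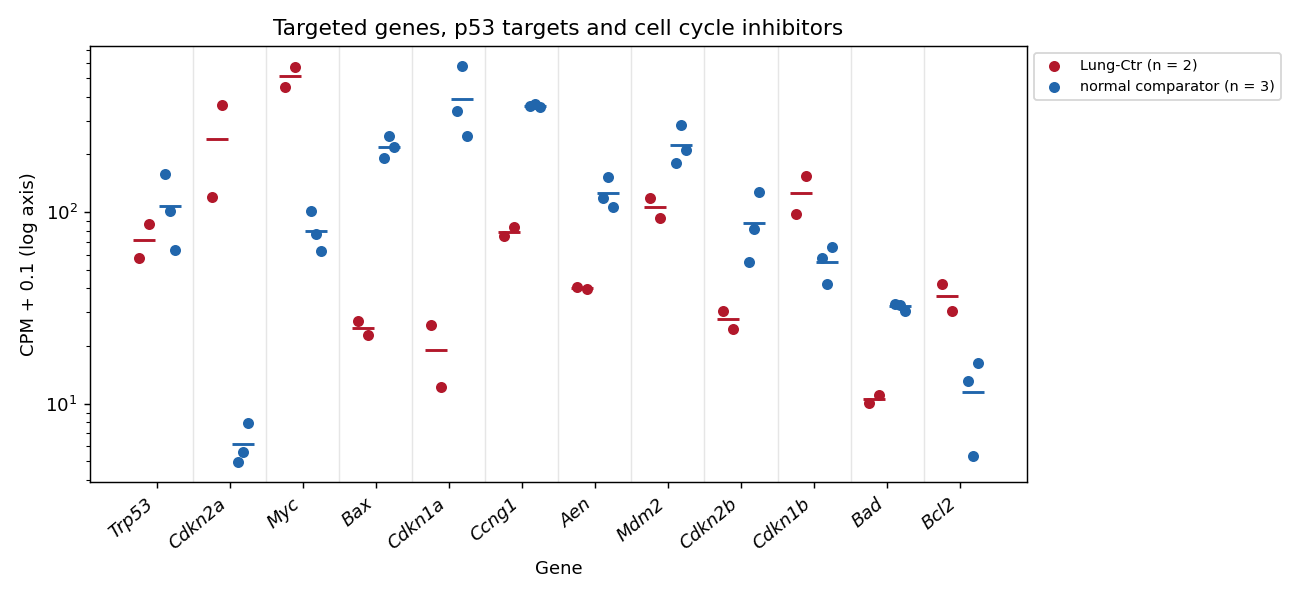
CPM plus 0.1 on a log axis for Trp53, Cdkn2a, Myc and 9 p53 target, RB pathway or BCL2 family genes, with the 2 Lung-Ctr libraries left of the 3 comparator libraries for each gene and a bar at each group mean. Cdkn2a and Myc are higher in both Lung-Ctr libraries, Bax, Ccng1 and Cdkn1a are lower in both, and Trp53 overlaps.

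Of the 22 RB pathway genes 1 rose, Cdkn2a, and 1 fell, Cdkn1a, against 0.488% and 0.754% of all genes. The 2 genes next in order of p were also cell cycle inhibitors. Cdkn2b, which neighbours Cdkn2a and inhibits Cdk4 and Cdk6, had 30.5 and 24.3 CPM in Lung-Ctr and 54.9, 81.1 and 127 CPM in the comparator (adjusted p = 0.0762), and Cdkn1b, the inhibitor p27, had 97.3 and 154 CPM in Lung-Ctr and 57.4, 42.1 and 65.4 CPM in the comparator (adjusted p = 0.0849). Neither passed, and they pointed opposite ways. In the BCL2 family 1 of 14 tested members fell, Bax, and none rose. Bad, another promoter of apoptosis, had 9.96 and 11 CPM in Lung-Ctr and 33.2, 32.8 and 30.4 CPM in the comparator without passing (adjusted p = 0.0587), and Bcl2, which blocks apoptosis, had 42 and 30.5 CPM in Lung-Ctr and 13, 5.25 and 16.1 CPM in the comparator (adjusted p = 0.107).

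Within the Myc network, Myc was the 1 member of 12 tested that rose, and none fell. Mlxip, a glucose-responsive partner of Mlx, separated the groups at 105 and 114 CPM in Lung-Ctr and 54.6, 50 and 45.3 CPM in the comparator (adjusted p = 0.0624). No member of the 30 ribosome biogenesis genes was called in either direction by edgeR. At an unadjusted p under 0.05 there were 5 higher and 1 lower, against 12.8% and 16.3% of all genes. DESeq2 called 3 higher and none lower, against 9.38% and 13.7%. Wdr12, a ribosome assembly factor, had 66.7 and 62 CPM in Lung-Ctr and 37.2, 29.1 and 22.2 CPM in the comparator, and Polr1b, a subunit of RNA polymerase I, had 105 and 93.5 CPM in Lung-Ctr and 61.3, 23.4 and 22.3 CPM in the comparator. Comparator replicate 1 stood closest to Lung-Ctr in both. Pes1, which works with Wdr12, pointed the other way at 79.3 and 73.2 CPM in Lung-Ctr and 134, 136 and 108 CPM in the comparator (adjusted p = 0.138). The E-box letters CACGTG, searched on both strands in RefSeq promoters from 250 bases before to 50 after the gene start, were present for 6 of the 25 list members matched (24%), against 8.09% of 27025 genes with a promoter and 11.6% of those tested here.

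Genes of S phase and mitosis depended on which comparator library was read. Their 30 members summed to 6009 and 7063 CPM in Lung-Ctr, against 5317, 352 and 508 CPM in the comparator, so comparator replicate 1 stood near the tumour organoids and the other two far below. Mki67, the nuclear antigen of cycling cells, had 430 and 553 CPM in Lung-Ctr and 574, 6 and 24.2 CPM in the comparator, with overlapping ranges. Ube2c, an enzyme of mitotic exit, had 362 and 515 CPM in Lung-Ctr and 161, 1.49 and 11 CPM in the comparator, ranges that did not overlap (adjusted p = 0.275). Cenpa, the centromere histone, had 134 and 215 CPM in Lung-Ctr and 84.4, 3.43 and 9.98 CPM in the comparator (adjusted p = 0.244). No member was called by edgeR or by DESeq2, and none had an unadjusted p under 0.05, although 13 of the 30 had higher, not overlapping ranges, against 24% of all genes, and the median log2 fold change was 1.44. Cell cycle levels differed more among the 3 comparator libraries than between Lung-Ctr and comparator replicate 1.

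Interferon response genes were the list with the most genes that rose. Of 29 tested members 4 rose, Oas2, Ddx58 and Parp14 among them, and none fell, whereas 0.488% of all genes rose. Oas2, which makes the alarm nucleotide that activates RNase L, had 169 and 36.9 CPM in Lung-Ctr and 0.364, 0.4 and 0.181 CPM in the comparator (log2 fold change 8.31, SE 0.84, edgeR adjusted p = 0.0315). Ddx58 encodes RIG-I, a sensor of viral RNA, and had 249.6 and 135 CPM in Lung-Ctr and 21.6, 22.6 and 20.1 CPM in the comparator (log2 fold change 3.16, SE 0.34, edgeR adjusted p = 0.0316). The 2 Lung-Ctr libraries lay above all 3 comparator libraries in both, and Lung-Ctr replicate 1 above replicate 2. Parp14, a macrodomain ADP-ribosyltransferase induced by interferon, had 151 and 70 CPM in Lung-Ctr and 18.3, 14.4 and 10 CPM in the comparator (log2 fold change 2.96, SE 0.44, edgeR adjusted p = 0.0431). After the length and GC correction Oas2 (adjusted p = 0.0389) and Ddx58 (adjusted p = 0.0435) stayed called, and Parp14 (adjusted p = 0.0803) did not. Without Lung-Ctr replicate 1 the log2 fold changes of Oas2 and Parp14 were 6.84 and 2.30, and without replicate 2 that of Oas2 was 9.03. Ranges were higher and did not overlap for 22 of the 29 members, against 24% of all genes, and the median log2 fold change was 2.44.

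The list as a whole followed the library as well as the group. Its 29 members summed to 2888 and 1196 CPM in Lung-Ctr, against 234, 722 and 246 CPM in the comparator. Comparator replicate 2 was the highest of its group: Isg15, a ubiquitin-like protein, had 36 and 12.3 CPM in Lung-Ctr and 1.58, 93.1 and 5.26 CPM in the comparator, and Rsad2, the antiviral protein viperin, had 167 and 64.9 CPM in Lung-Ctr and 0.607, 54 and 1.21 CPM in the comparator. Isg15 was thus higher in comparator replicate 2 than in Lung-Ctr, and Rsad2 came close to Lung-Ctr replicate 2. The same list also varied among Ctr organoids of the TMP genotype, with sums of 1607, 2029 and 260 CPM in their 3 libraries, where Oas2 had 93.7, 112 and 0.345 CPM. Ctr replicate 3 was thus at the level of comparator replicates 1 and 3.

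Promoters of this list are shown because 4 of its members rose and none fell. The interferon-stimulated response element, searched on both strands as GAAA, any 2 bases and GAAA, was present in the RefSeq promoter of 13 of the 21 members matched (61.9%), against 3.99% of 27025 genes and 3.6% of those tested. Given next are the 2 members of smallest p that hold it, from the RefSeq table of GRCm38.p6, 5′ to 3′ on the gene's strand, with the matching letters in capitals; Ddx58 lies at chr4:40239776-40240075 on the minus strand and Ifih1, the sensor MDA5, at chr2:62646206-62646505 on the minus strand.
Ddx58: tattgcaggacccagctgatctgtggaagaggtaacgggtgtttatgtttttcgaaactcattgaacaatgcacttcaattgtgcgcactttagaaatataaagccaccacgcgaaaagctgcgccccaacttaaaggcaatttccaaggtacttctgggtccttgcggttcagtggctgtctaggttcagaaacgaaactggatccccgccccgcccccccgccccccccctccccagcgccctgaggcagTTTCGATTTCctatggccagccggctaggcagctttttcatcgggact
Ifih1: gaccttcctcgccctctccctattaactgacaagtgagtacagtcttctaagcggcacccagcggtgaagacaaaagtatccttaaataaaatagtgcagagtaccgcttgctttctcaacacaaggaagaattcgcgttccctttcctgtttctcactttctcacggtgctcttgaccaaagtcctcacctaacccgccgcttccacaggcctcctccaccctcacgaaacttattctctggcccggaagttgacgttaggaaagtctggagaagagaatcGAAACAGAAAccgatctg
The match of Ddx58 begins 2 bases after the gene start and that of Ifih1 32 bases after it. Ifih1 itself had 104 and 53.1 CPM in Lung-Ctr and 10.4, 24.3 and 10.3 CPM in the comparator, without overlap, and missed the threshold (adjusted p = 0.0618). A match of letters is a description and not a binding site.

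**Figure D3:**
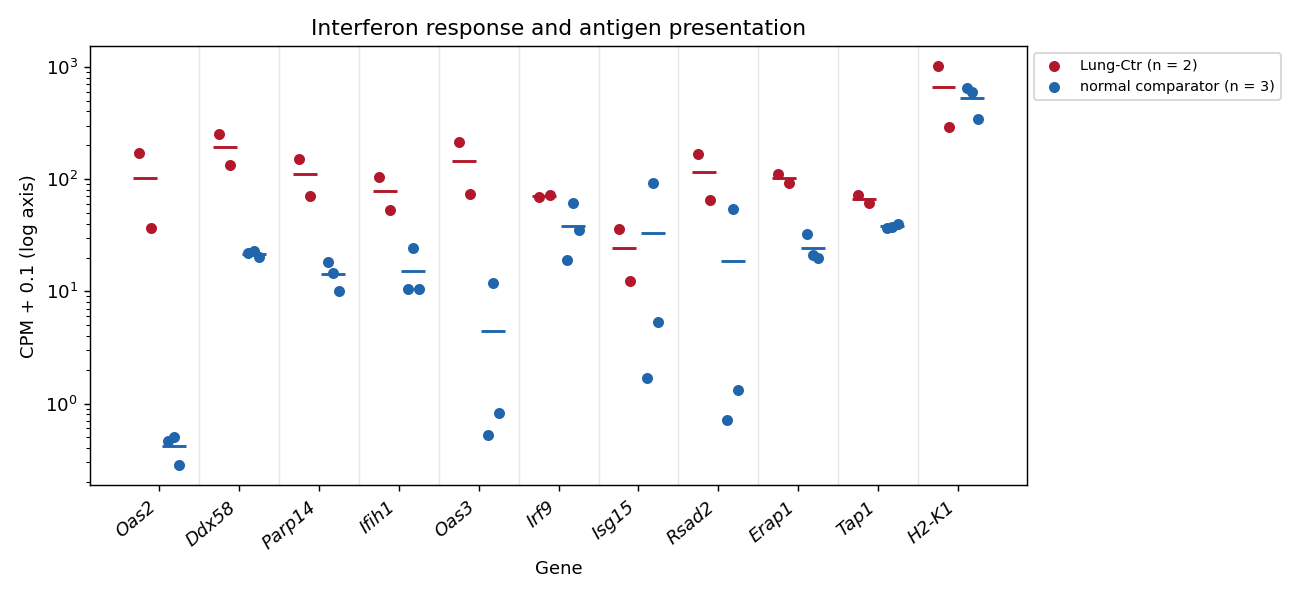
CPM plus 0.1 on a log axis for 11 interferon response and antigen presentation genes, with the 2 Lung-Ctr libraries left of the 3 comparator libraries for each gene and a bar at each group mean. Oas2, Ddx58 and Parp14 are higher in both Lung-Ctr libraries, while in comparator replicate 2 Isg15 lies above both Lung-Ctr libraries and Rsad2 just below Lung-Ctr replicate 2.

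Of 18 tested genes for antigen presentation on MHC class I, 1 rose and none fell. Erap1, which trims peptides in the endoplasmic reticulum, had 110.2 and 93 CPM in Lung-Ctr and 32, 20.8 and 19.5 CPM in the comparator (log2 fold change 2.07, SE 0.33, edgeR adjusted p = 0.0478), a call not kept after the length and GC correction (log2 fold change 1.42, adjusted p = 0.0966). Tap1, a subunit of the peptide transporter, had 71.8 and 60.8 CPM in Lung-Ctr and 36.9, 37.4 and 39.6 CPM in the comparator (adjusted p = 0.112). H2-K1, a class I heavy chain, overlapped at 1019 and 289.9 CPM in Lung-Ctr and 645, 598 and 342 CPM in the comparator. H2 genes are close copies of each other, so their counts are uncertain.

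Immediate early genes split. Fos and Fosb, subunits of the AP-1 transcription factor that are induced within minutes of a growth signal, rose, and Fosl1, a later AP-1 subunit, fell, out of 17 tested. Fos had 741 and 343 CPM in Lung-Ctr and 32.1, 15.9 and 14.5 CPM in the comparator (log2 fold change 4.70, SE 0.54, edgeR adjusted p = 0.0327). Fosb had 341 and 135 CPM in Lung-Ctr and 13.1, 8.45 and 3.99 CPM in the comparator (log2 fold change 4.80, SE 0.64, edgeR adjusted p = 0.0418). Fosl1 had 2.06 and 0.798 CPM in Lung-Ctr and 60.8, 67.7 and 22.9 CPM in the comparator (log2 fold change -5.14, SE 0.77, edgeR adjusted p = 0.0431). The partners of the Jun family did not pass: Junb had 97.2 and 129 CPM in Lung-Ctr and 374, 193 and 407 CPM in the comparator, lower without overlap (adjusted p = 0.083). Egr1, an early zinc finger factor, had 343 and 566 CPM in Lung-Ctr and 172, 189 and 123 CPM in the comparator, higher without overlap (adjusted p = 0.0653). Fos alone of the 3 stayed called after the length and GC correction (adjusted p = 0.0435, against 0.0585 for Fosb and 0.0838 for Fosl1). Fosl1 was at -4.50 on the log2 scale there and at -6.75 with Normal_nasopha in place of the comparator columns. Without Lung-Ctr replicate 1 the log2 fold changes were 4.04 for Fos, 3.99 for Fosb and -5.97 for Fosl1.

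Feedback on the ERK pathway was mixed in the same way. Spred1, an inhibitor of Ras signalling, rose with 336 and 243 CPM in Lung-Ctr and 77.2, 41.6 and 54.9 CPM in the comparator (log2 fold change 2.32, SE 0.35, edgeR adjusted p = 0.0431), Fosl1 was the 1 member that fell, and the other 13 of 15 were not called. Spred3, its relative, had 6.11 and 4.79 CPM in Lung-Ctr and 22.7, 20.5 and 37 CPM in the comparator (adjusted p = 0.057). Of 14 tested EGF receptors and ligands 1 fell, the ligand Epgn (epigen), with 0.275 and 0.2 CPM in Lung-Ctr and 10.4, 5.77 and 14.3 CPM in the comparator (log2 fold change -5.38, SE 0.80, edgeR adjusted p = 0.0431). Areg, the ligand amphiregulin, had 15.5 and 5.85 CPM in Lung-Ctr and 212, 36.4 and 58 CPM in the comparator (adjusted p = 0.0986), and the receptor Egfr overlapped at 101 and 141 CPM in Lung-Ctr and 140, 57.3 and 99.4 CPM in the comparator. Of 14 tested Notch pathway genes 1 rose, Rbpj, the DNA-binding partner of the Notch intracellular domain, with 243 and 198 CPM in Lung-Ctr and 66.2, 61 and 62.6 CPM in the comparator (log2 fold change 1.80, SE 0.25, edgeR adjusted p = 0.0418). None of Spred1, Epgn and Rbpj stayed called after the length and GC correction (adjusted p = 0.0896, 0.0652 and 0.0895), and the log2 fold change of Spred1 was 1.62 there.

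Krt5, Col17a1, Trp63 and Krt8 lay far apart between the 2 Lung-Ctr libraries. Krt5, the keratin of basal cells, had 19.6 and 1995 CPM in Lung-Ctr replicates 1 and 2 and 8116, 2105 and 5946 CPM in the comparator. Col17a1, a collagen of the basal attachment plaque, had 1.37 and 315 CPM in Lung-Ctr and 710.3, 112 and 670.5 CPM in the comparator, and Trp63, the p53 relative that maintains basal cells, had 51.5 and 343 CPM in Lung-Ctr and 217, 59.2 and 309.8 CPM in the comparator. Krt8, a keratin of simple epithelium, ran the other way at 1459 and 119.7 CPM in Lung-Ctr and 1000, 586 and 708 CPM in the comparator. Lung-Ctr replicate 1 was thus the low one in these 3 basal genes and the high one in Krt8. Foxa2, a factor of endoderm-derived epithelium, had 28.9 and 0 CPM in Lung-Ctr and 0.788, 0.0571 and 0.121 CPM in the comparator, so that it was seen in replicate 1 alone of the 2. None of 18 basal genes was called by edgeR. None was higher and 4 were lower at an unadjusted p under 0.05, and 3 were lower by DESeq2, against 16.3% and 13.7% of all genes lower. Pdpn, the membrane glycoprotein podoplanin, had the smallest p, with 11.8 and 29 CPM in Lung-Ctr and 115, 82.1 and 89 CPM in the comparator (adjusted p = 0.0596). Nor was any of 26 epithelial identity genes called. At an unadjusted p under 0.05 there were 3 higher and 3 lower, against 12.8% and 16.3% of all genes. DESeq2 called 1 higher and 2 lower, against 9.38% and 13.7%. Esrp1, which sets epithelial splicing, had 363 and 459 CPM in Lung-Ctr and 167, 169 and 131 CPM in the comparator (adjusted p = 0.0566).

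Squamous differentiation genes were low in both Lung-Ctr libraries. Of 26 tested members 2 fell and none rose, against 0.754% and 0.488% of all genes. Cnfn (cornifelin), a part of the cornified envelope, had 1.24 and 1.53 CPM in Lung-Ctr and 34.8, 63.7 and 39.3 CPM in the comparator (log2 fold change -5.04, SE 0.50, edgeR adjusted p = 0.0264). Sprr1a, a small proline-rich envelope precursor, had 13.7 and 28.4 CPM in Lung-Ctr and 587, 458 and 978 CPM in the comparator (log2 fold change -5.00, SE 0.60, edgeR adjusted p = 0.0341). Krt16, a keratin of stressed and dividing squamous epithelium, was lower without overlap at 1.79 and 14.5 CPM in Lung-Ctr and 936, 365 and 1030 CPM in the comparator (adjusted p = 0.0544). In all, 15 of 26 members were lower without overlap, against 27% of all genes, and the median log2 fold change was -2.83, or -2.33 with the length and GC correction, under which neither Cnfn (adjusted p = 0.0517) nor Sprr1a (adjusted p = 0.0517) was called. Their log2 fold changes were -3.79 and -3.98 there, and that of Sprr1a was -5.63 without Lung-Ctr replicate 2. The summed level was 1460 and 2097 CPM in Lung-Ctr and 13410, 3757 and 10060 CPM in the comparator, and basal genes summed to 2834 and 8952 CPM in Lung-Ctr and 25160, 6179 and 18230 CPM in the comparator, so comparator replicate 2 was the lowest of the 3 in both.

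**Figure D4:**
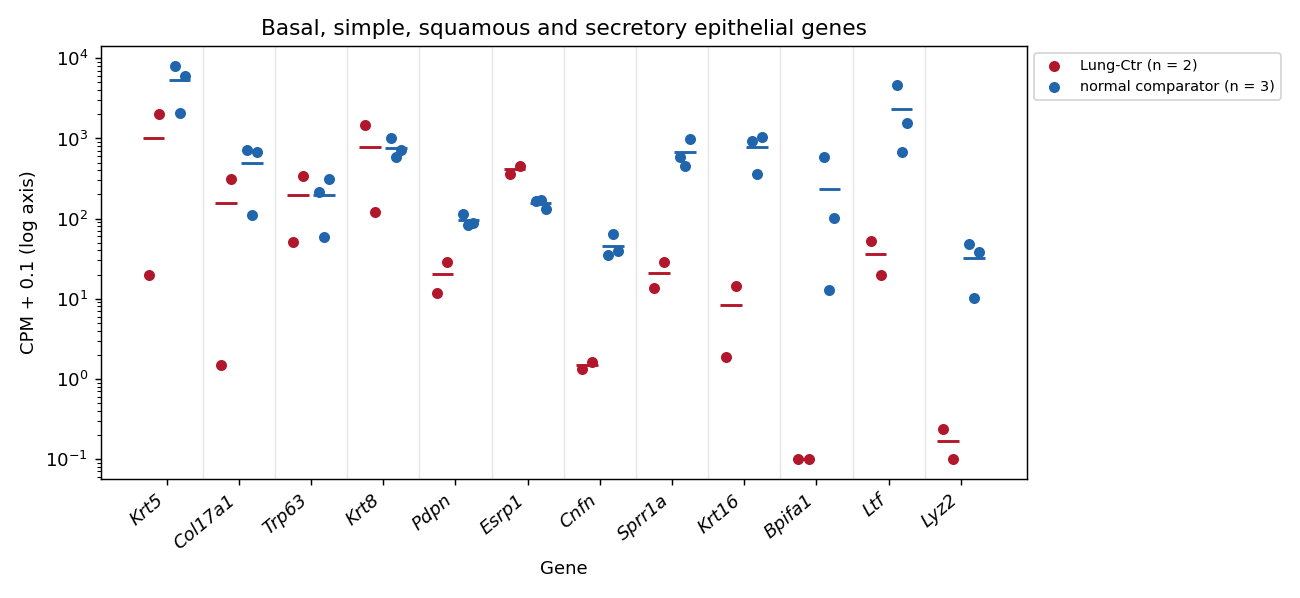
CPM plus 0.1 on a log axis for 12 basal, simple, squamous and secretory epithelial genes, with the 2 Lung-Ctr libraries left of the 3 comparator libraries for each gene and a bar at each group mean. Krt5 and Col17a1 lie far apart between the 2 Lung-Ctr libraries, while Cnfn, Sprr1a, Bpifa1 and Lyz2 are low in both.

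Most airway secretory genes tested were lower in both Lung-Ctr libraries, although the sums of the list overlapped, at 1907 and 1078 CPM in Lung-Ctr and 8940, 1618 and 4656 CPM in the comparator. Of 21 tested members 1 fell and none rose: Lyz2, a lysozyme of secretory and myeloid cells, had 0.137 and 0 CPM in Lung-Ctr and 47.9, 10.1 and 37.9 CPM in the comparator with 2 counts in Lung-Ctr, a ratio of 466 (95% counting interval 129 to 3850; edgeR adjusted p = 0.0431, and 0.0733 with the length and GC correction). The leukocyte markers given above also summed higher in the comparator, and their part in this result was not tested. Bpifa1, a secreted antimicrobial of upper airway glands, had no count in Lung-Ctr and 588, 12.7 and 101 CPM in the comparator, at least 2260-fold lower, and Ltf, which encodes lactoferrin, had 52 and 19.7 CPM in Lung-Ctr and 4690, 679 and 1543 CPM in the comparator. Neither passed (adjusted p = 0.0739 and 0.0557), and comparator replicate 1 was far above the other two in both. Ranges were lower without overlap in 16 of 21 members, against 27% of all genes, and the median log2 fold change was -4.8, or -3.93 with genes at 0 set to their bound. Wfdc2, a protease inhibitor of airway epithelium, overlapped at 832 and 569 CPM in Lung-Ctr and 1259, 476 and 1012 CPM in the comparator.

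Ciliated cells could not be compared. Only 9 of 30 listed genes in the table passed the filter on low counts, and none of them was called by edgeR. At an unadjusted p under 0.05 there were 1 higher and 1 lower, against 12.8% and 16.3% of all genes. DESeq2 gave the same counts, against 9.38% and 13.7%. The motor protein Dnah5 had 0 and 0 CPM in Lung-Ctr and 0.0607, 0 and 0 CPM in the comparator. Rfx3, a transcription factor of ciliogenesis with other roles, had the smallest p at 41.8 and 34 CPM in Lung-Ctr and 9.22, 3.65 and 11.5 CPM in the comparator (adjusted p = 0.0682). The letters GTTGCCA, part of the X-box bound by RFX factors, or their reverse complement TGGCAAC, stood in 9 of 26 matched promoters (34.6%), against 5.02% of all genes.

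Most lung lineage genes were far below their level in Normal_lung: the median over 15 genes was 0.00334% and 0.00255% of the Normal_lung mean in Lung-Ctr and 0.462%, 0.103% and 0.116% in the comparator. Etv5, a transcription factor with roles outside lung, was the highest at 24.5% and 20.3% in Lung-Ctr and 16%, 11.5% and 19.5% in the comparator. Nkx2-1, the factor that specifies lung epithelium, had no count in Lung-Ctr and 3.58, 0.514 and 0.605 CPM in the comparator. Sftpc was the 1 of 17 tested members that fell, with 0 and 0.133 CPM in Lung-Ctr and 134, 31.6 and 30.3 CPM in the comparator, 2 counts in Lung-Ctr and a ratio of 957 (95% counting interval 265 to 7910; edgeR adjusted p = 0.0431, and 0.0865 with the length and GC correction). As a percent of the Normal_lung mean by total count, the comparator's Sftpc was 0.298%, 0.0699% and 0.0671% in replicates 1 to 3, its Sftpb 0.275%, 0.0626% and 0.0596%, and its Slc34a2, a phosphate carrier of alveolar cells, 0.303%, 0.0739% and 0.0697%. These 3 lung genes stood at about the same low percent within a comparator library, highest in replicate 1. Nkx2-1, Sftpa1, Lamp3, Napsa, Ager and Cldn18 were similar. They stood at 0.29% to 0.531%, 0.0511% to 0.135% and 0.0569% to 0.124% in replicates 1 to 3. The rest of the 15 lung genes compared, Sftpd, Abca3, Hopx, Etv5, Lpcat1 and Cebpa, stood higher. Sftpd had 2.39%, 1.03% and 4.05% in the comparator and Abca3, a lipid transporter, 3.1%, 3.21% and 2.96%. What part this shared low percent had in the call of Sftpc and the level of Nkx2-1 was not tested. Hopx, which cells outside the alveolus also express, had 17.5 and 30.4 CPM in Lung-Ctr and 31.5, 79 and 80.1 CPM in the comparator, lower without overlap (adjusted p = 0.14).

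Transcription factors that mark head and pharynx regions gave 3 genes that fell among 29 tested and none that rose, against 0.754% and 0.488% of all genes. The list as a whole was mixed, with fitted fold changes above 0 in 12 members and below it in 17. Ranges did not overlap for 6 higher and 12 lower members, against 24% and 27% of all genes. The median log2 fold change was -0.65, or -0.333 with the length and GC correction. Pax6, a factor of eye, brain and olfactory placode, had 0.206 and 0.0665 CPM in Lung-Ctr and 54.3, 38.9 and 93 CPM in the comparator (log2 fold change -8.76, SE 0.78, edgeR adjusted p = 0.0264; 0.0225 with the length and GC correction). Pax7 and Pax3, paired factors of neural crest and muscle precursors, had no count in Lung-Ctr, against 15, 7.25 and 9.07 CPM of Pax7 and 9.7, 20.5 and 7.62 CPM of Pax3 in the comparator, at least 102-fold and 126-fold lower (edgeR adjusted p = 0.0405 and 0.0428). Neither Pax7 nor Pax3 was called with the length and GC correction (adjusted p = 0.0594 and 0.0624). Without Lung-Ctr replicate 1 the log2 fold change of Pax6 was -9.70. Isl1, a factor of pharyngeal mesoderm and neurons, missed the threshold at 0.0687 and 0.465 CPM in Lung-Ctr and 28.8, 17.7 and 10.6 CPM in the comparator (adjusted p = 0.0501). Hoxa3, of the Hox genes that mark levels behind the head, lay on the other side without passing. It had 1.58 and 11.5 CPM in Lung-Ctr and no count in the comparator, at least 112-fold higher (adjusted p = 0.0653). Pitx1, a factor of the oral region, was in both groups with overlapping ranges, at 35.6 and 71.1 CPM in Lung-Ctr and 158, 51 and 202 CPM in the comparator. Ctr organoids had 0.0692, 12.1 and 0 CPM of Pax6 and 22.6, 7.17 and 12.4 CPM of Hoxa3, so Pax6 stood above 1 CPM in Ctr replicate 2 alone of these TMP libraries.

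The metabolism of foreign compounds and the NRF2 response held mostly lower genes. Of 27 tested xenobiotic genes 2 fell and none rose, against 0.754% and 0.488% of all genes. Aldh1a3, which makes retinoic acid, had 4.33 and 5.12 CPM in Lung-Ctr and 309, 199 and 186 CPM in the comparator (log2 fold change -5.61, SE 0.43, edgeR adjusted p = 0.0229). Ces1d, a carboxylesterase, had 0.824 and 1.06 CPM in Lung-Ctr and 123, 176 and 349.5 CPM in the comparator (log2 fold change -7.83, SE 0.70, edgeR adjusted p = 0.0264). Both stayed called after the length and GC correction (adjusted p = 0.0205 and 0.0225). Cyp2a5, a cytochrome of nasal mucosa and liver, had no count in Lung-Ctr and 153, 627 and 2606 CPM in the comparator, at least 11000-fold lower, with a wide spread among comparator libraries (adjusted p = 0.0544); its counts are uncertain because close copies exist. Gsto1, a glutathione transferase, had 671 and 1097 CPM in Lung-Ctr and 3963, 5026 and 6504 CPM in the comparator (adjusted p = 0.0544). In all, 21 of 27 members were lower without overlap and 1 higher, against 27% and 24% of all genes, and the median log2 fold change was -3.41. The fit of 13 libraries called 13 lower, against 14.2% of all genes, and none higher.

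Among 18 NRF2 targets, all of which passed the filter on low counts, 2 fell and none rose, against 0.754% and 0.488% of all genes. Osgin1, a growth inhibitor induced by oxidative stress, had 11.5 and 9.91 CPM in Lung-Ctr and 160.3, 368 and 139.9 CPM in the comparator (log2 fold change -4.38, SE 0.58, edgeR adjusted p = 0.0405). G6pdx, the X-linked first enzyme of the pentose phosphate pathway, had 145 and 154 CPM in Lung-Ctr and 599.6, 539 and 813 CPM in the comparator (log2 fold change -2.12, SE 0.33, edgeR adjusted p = 0.0478). Hmox1, heme oxygenase, had 8.86 and 8.58 CPM in Lung-Ctr and 575, 4516 and 937 CPM in the comparator, a wide separation that missed the threshold (adjusted p = 0.0525). Pgd, the next dehydrogenase of that pathway, was lower without overlap at 273 and 290 CPM in Lung-Ctr and 867, 1031 and 1166 CPM in the comparator (adjusted p = 0.0525), as were 17 of the 18 in all, against 27% of all genes. The median log2 fold change was -2.19, and -2.08 with the length and GC correction, under which neither Osgin1 (adjusted p = 0.0699) nor G6pdx (adjusted p = 0.0859) was called, with Osgin1 at -3.77 on the log2 scale. The fit of 13 libraries called 15 lower, against 14.2% of all genes, and none higher. Lung-Ctr replicate 2 was nearer the comparator in some members: Nqo1, a quinone reductase, had 18.6 and 362 CPM in Lung-Ctr and 614, 809 and 3754 CPM in the comparator. The list summed to 4312 and 6914 CPM in Lung-Ctr, 15810, 37430 and 40520 CPM in the comparator, and 5562, 4410 and 6239 CPM in Ctr organoids.

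**Figure D5:**
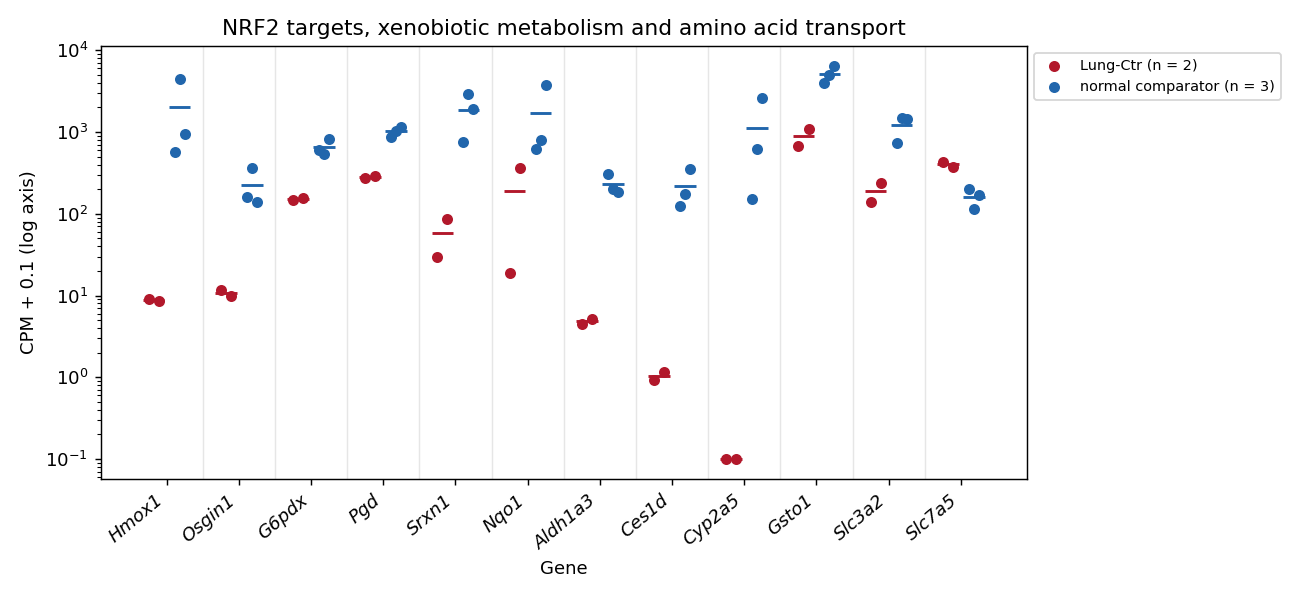
CPM plus 0.1 on a log axis for 12 NRF2 target, xenobiotic and amino acid transport genes, with the 2 Lung-Ctr libraries left of the 3 comparator libraries for each gene and a bar at each group mean. Both Lung-Ctr libraries lie below all 3 comparator libraries in every gene plotted except Slc7a5, where they lie above.

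The other metabolic lists held 1 call between them. Their counts below stand against 12.8% of all genes higher and 16.3% lower at an unadjusted p under 0.05, and 9.38% and 13.7% by DESeq2. None of 30 ATF4 and unfolded protein response genes was called by edgeR, with 1 higher and 11 lower at an unadjusted p under 0.05 and 1 higher and 9 lower by DESeq2. Slc3a2 and Slc7a5 form 1 amino acid transporter and pointed opposite ways: Slc3a2 had 138 and 240.1 CPM in Lung-Ctr and 738, 1488 and 1447 CPM in the comparator (adjusted p = 0.0544), and Slc7a5 had 431 and 375 CPM in Lung-Ctr and 199, 116 and 171 CPM in the comparator (adjusted p = 0.0701). None of 24 tested glycolysis and hypoxia genes was called by edgeR, with 4 higher and 5 lower at an unadjusted p under 0.05 and 4 higher and 2 lower by DESeq2. Pdk1, the kinase that closes pyruvate dehydrogenase, had 486 and 284 CPM in Lung-Ctr and 51.6, 16.6 and 55.5 CPM in the comparator (adjusted p = 0.0538), and Adm, the peptide adrenomedullin, had 8.45 and 4.32 CPM in Lung-Ctr and 36.5, 61.7 and 40.9 CPM in the comparator (adjusted p = 0.0525). Hypoxia-induced genes thus lay on both sides. None of 30 sterol and fatty acid synthesis genes was called by edgeR, with 4 higher and none lower at an unadjusted p under 0.05 and 3 higher by DESeq2; the desaturase Scd1 had 677 and 611 CPM in Lung-Ctr and 228, 41.5 and 134 CPM in the comparator (adjusted p = 0.093). Of 29 oxidative phosphorylation genes 1 fell, Cox5b, a subunit of cytochrome oxidase, with 23.1 and 26.1 CPM in Lung-Ctr and 159.6, 144 and 106 CPM in the comparator (log2 fold change -2.47, SE 0.32, edgeR adjusted p = 0.0395). It did not pass with the length and GC correction (log2 fold change -1.85, adjusted p = 0.0895), and 15 of the 29 members were higher without overlap and 7 lower, against 24% and 27% of all genes, so the lower share is near the background.

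Signalling lists without a call held separated genes too, though 51% of all genes tested were separated. Of all genes, 12.8% were higher and 16.3% lower at an unadjusted p under 0.05, and 9.38% and 13.7% by DESeq2. Separated members were 7 higher and 3 lower in the NF-kB list, 4 and 1 in TGF-beta, 5 and 4 in Wnt and 1 and 5 among SOX and KLF factors. The separated share of each of these lists was below 51%. In the NF-kB and chemokine list (31 tested, none called by edgeR, 5 higher and 3 lower at an unadjusted p under 0.05, 4 higher and 3 lower by DESeq2), the monocyte chemokine Ccl2 had 431 and 17.8 CPM in Lung-Ctr and 2.61, 0.0571 and 0.363 CPM in the comparator (adjusted p = 0.0699), far apart between the Lung-Ctr libraries. Of 16 YAP pathway and target genes none was called, although 8 were higher without overlap and none lower, with 6 higher at an unadjusted p under 0.05 and 5 by DESeq2, against 24%, 12.8% and 9.38% of all genes. Amotl2, a regulator and target of YAP, had 139 and 164 CPM in Lung-Ctr and 61, 59.7 and 46.7 CPM in the comparator (adjusted p = 0.0544), and Tead1, the DNA-binding partner of YAP, had 508 and 316 CPM in Lung-Ctr and 174, 48.7 and 97.3 CPM in the comparator (adjusted p = 0.0885). Both lay above every comparator library. In the TGF-beta list (21 tested, none called, 3 higher and 3 lower at an unadjusted p under 0.05, 3 higher and 1 lower by DESeq2) the ligand Tgfb3 had 47.8 and 59.6 CPM in Lung-Ctr and 7.1, 8.62 and 14.9 CPM in the comparator (adjusted p = 0.0525). In the Wnt list (20 tested, none called, 3 higher and 3 lower at an unadjusted p under 0.05, 2 each way by DESeq2) the ligand Wnt10a had 23.7 and 109.6 CPM in Lung-Ctr and 10.4, 4.63 and 6.83 CPM in the comparator (adjusted p = 0.0631). Among 14 SOX and KLF factors (none called, 2 each way at an unadjusted p under 0.05, 1 higher and 2 lower by DESeq2) Klf5, a factor of proliferating epithelium, was lower without overlap at 81.7 and 97.2 CPM in Lung-Ctr and 201, 196 and 224 CPM in the comparator (adjusted p = 0.0618).

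No member of the lists of secreted and matrix genes was called. The counts below stand against 12.8% of all genes higher and 16.3% lower at an unadjusted p under 0.05, and 9.38% and 13.7% by DESeq2. In the antimicrobial and acute phase list (15 tested, none called by edgeR, none higher and 5 lower at an unadjusted p under 0.05, 6 lower by DESeq2) the chitinase-like protein Chil1 had 0.756 and 0.266 CPM in Lung-Ctr and 379.8, 26.8 and 68.3 CPM in the comparator (adjusted p = 0.0593). In the matrix protease list (18 tested, none called, 1 higher and 8 lower at an unadjusted p under 0.05 and by DESeq2) the protease Plau (urokinase) had 181 and 106 CPM in Lung-Ctr and 56, 26.4 and 43.8 CPM in the comparator (adjusted p = 0.0657). Plau lay higher in both Lung-Ctr libraries than in any comparator library. It was the only tested member of its list to do so, while 9 were lower without overlap. In the list of EMT and mesenchymal genes (19 tested, none called, 2 higher and 7 lower at an unadjusted p under 0.05, 2 higher and 6 lower by DESeq2) Lgals1, galectin 1, had 7.08 and 8.18 CPM in Lung-Ctr and 87.4, 34.1 and 130 CPM in the comparator (adjusted p = 0.0544). Among 17 tested imprinted genes (none called, 2 higher and 6 lower at an unadjusted p under 0.05, 2 higher and 5 lower by DESeq2) Ndn had 0.0687 and 0 CPM in Lung-Ctr and 4.73, 2.51 and 12.1 CPM in the comparator (adjusted p = 0.0554). Of 14 tested genes of DNA methylation, TET and Polycomb enzymes none was called, 3 were higher at an unadjusted p under 0.05 and 2 by DESeq2; Suz12, a core subunit of Polycomb complex PRC2, had 359.9 and 306 CPM in Lung-Ctr and 126, 75.8 and 68.8 CPM in the comparator (adjusted p = 0.0544).

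The genes of largest called change, among those averaging log2 CPM 3 or more with separated ranges, were these. The Y-linked Eif2s3y, Uty and Kdm5d, like Ddx3y, had no count in the comparator and were at least 1460-fold, 945-fold and 488-fold higher (edgeR adjusted p = 0.0264, 0.0264 and 0.0325). Besides these 4 genes, Oas2 and Cdkn2a, the 10 highest held 4 more. Lpl, lipoprotein lipase, had 138 and 149.9 CPM in Lung-Ctr and 0.485, 0.628 and 2.24 CPM in the comparator (a fitted 128-fold difference, SE 0.73 on the log2 scale, edgeR adjusted p = 0.0316). Scnn1b, a subunit of the epithelial sodium channel, had 39.8 and 53.9 CPM in Lung-Ctr and 0.546, 0.857 and 2.06 CPM in the comparator (log2 fold change 5.33, SE 0.64, edgeR adjusted p = 0.0341). Mndal had 72.8 and 21.3 CPM in Lung-Ctr and 0.607, 0.628 and 0.0605 CPM in the comparator, and Ifi203 had 41.2 and 8.71 CPM in Lung-Ctr and 0.424, 0.285 and 0.544 CPM in the comparator (edgeR adjusted p = 0.0431 and 0.0421). The last pair belongs to the interferon-inducible Ifi200 family, whose close copies make the counts uncertain, and neither stayed called with the length and GC correction (adjusted p = 0.0718 and 0.0733), whereas Lpl and Scnn1b did (adjusted p = 0.0474 and 0.0435). Without Lung-Ctr replicate 1 the log2 fold changes of Mndal and Ifi203 were 5.59 and 4.37, without replicate 2 7.36 and 6.60, and without comparator replicate 3 those of Lpl and Scnn1b were 7.98 and 6.04.

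The 10 lowest included Xist, Sftpc and Pax6, given above, and 7 more. Six3, a homeobox factor of forebrain, eye and nasal placode, had no count in Lung-Ctr and 112, 57.3 and 88.5 CPM in the comparator, at least 843-fold lower (edgeR adjusted p = 0.0229). Its antisense neighbour Six3os1 had no count in Lung-Ctr and 28, 11.3 and 18.6 CPM in the comparator, at least 189-fold lower (edgeR adjusted p = 0.0341); the counting strand is not given in the sources used here, so reads of the pair cannot be told apart. Sp8, a zinc finger factor of limb and face outgrowth, had no count in Lung-Ctr and 38.9, 12.7 and 42.2 CPM in the comparator, at least 305-fold lower (edgeR adjusted p = 0.0395). All 3 were present in every comparator library. Sall1, a zinc finger factor of kidney and limb, had 1 count in Lung-Ctr and 15.6, 31.2 and 45.6 CPM in the comparator, a ratio of 912 (95% counting interval 164 to 36100; edgeR adjusted p = 0.0325). Zfhx4, a zinc finger homeobox factor, had 2 counts in Lung-Ctr and 50.5, 40.6 and 40.4 CPM in the comparator, a ratio of 648 (95% counting interval 179 to 5350; edgeR adjusted p = 0.0264). Levels among Ctr organoids were uneven: Six3 stood at 1.25, 48.1 and 0 CPM, Sall1 at 0.138, 7.51 and 0.069 CPM and Zfhx4 at 0.692, 9.49 and 0.069 CPM, with Ctr replicate 2 the high one each time. The remaining low genes were Serpina3n, a protease inhibitor with close copies, with no count in Lung-Ctr and 26, 9.59 and 19.2 CPM in the comparator (at least 178-fold lower, edgeR adjusted p = 0.0375), and Sprr2f, a member of a family of near-identical envelope genes, with 1 count in Lung-Ctr and 17.6, 63.9 and 88.1 CPM in the comparator (ratio 1680, 95% counting interval 301 to 66300; edgeR adjusted p = 0.0375). Of these, Sp8, Serpina3n and Sprr2f did not stay called with the length and GC correction (adjusted p = 0.0517, 0.0557 and 0.0517).

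Whether this profile is particular to Lung-Ctr was asked by setting it against Ctr, the other TMP organoids, in the fit of 13 libraries. Lung-Ctr and Ctr against the comparator share the comparator, so the test is of Lung-Ctr minus Ctr. No gene of 14096 passed with edgeR (smallest adjusted p = 0.437), 518 had an unadjusted p under 0.05, and DESeq2 called 18 genes higher and 9 lower. Without Lung-Ctr replicate 2, 14 were higher and 1 lower. Myc had 457 and 563 CPM in Lung-Ctr and 772, 632 and 622 CPM in Ctr, so Lung-Ctr was lower without overlap, though not called. Cdkn2a had 122 and 357 CPM in Lung-Ctr and 293, 217 and 218 CPM in Ctr, and Fos had 751 and 339 CPM in Lung-Ctr and 793, 319 and 239 CPM in Ctr. Aldh1a3 had 4.39 and 5.07 CPM in Lung-Ctr and 3.18, 13.5 and 4.9 CPM in Ctr, and Cnfn had 1.25 and 1.51 CPM in Lung-Ctr and 1.8, 1.57 and 0.828 CPM in Ctr. The ranges of Lung-Ctr and Ctr overlapped in these last 4 genes. Some lists held a larger share of genes at an unadjusted p under 0.05 than the 518 of 14096 over all genes. They were 5 of 16 antimicrobial, 4 of 22 airway secretory, 4 of 21 EMT and mesenchymal, 3 of 8 fibroblast, and 5 of 21 each in TGF-beta and Wnt. Their median log2 fold changes of Lung-Ctr minus Ctr were -1.54, -2.51, -1.08, -4.09, 0.361 and 0.339. Fibroblast markers summed to 59.8, 243.8 and 126.2 CPM in Ctr replicates 1 to 3, with 9, 1 and 7 of 12 members at 0. The fibroblast median thus came from uneven Ctr libraries. None stood at that p among 29 interferon response, 18 NRF2 target and 26 squamous genes, where the share over all genes would give few. The lists were not tested as sets. A p that misses the threshold does not show that the groups are alike.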

How the data were processed

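Gene counts are the authors' deposited values, whole-number read counts per gene and library, per the file headers; the submitters' processing notes name STAR, mm10, DESeq and DESeq2, and counting settings were not found in the labels. The 2 Lung-Ctr and 3 normal comparator columns stand in separate deposited tables and were joined by gene symbol (24421 symbols), and 32 deposited columns of scaled values were not used. Of 27 symbols turned into dates, 26 were restored. The main test was edgeR 4.0.16 in R 4.3.3: filterByExpr by group, TMM, robust quasi-likelihood fit on the 5 libraries (3 residual degrees of freedom), Benjamini-Hochberg over all 13523 genes tested and a threshold of 0.05. CPM values use TMM library sizes.

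Alternatives were RLE factors, DESeq2 1.42.0, no filter, leaving out each library, the replicate number as a block, a fit of 13 libraries, an offset removing each library's trend with length and GC content (GENCODE transcripts, splines from mgcv 1.9.3) and Normal_nasopha in place of the comparator columns. Normal_nasopha counts were deposited separately, with 51912 entries and totals of 20672975, 21737184 and 20613034. The comparator count was not above the same-numbered Normal_nasopha count in 85.9%, 85.2% and 85% of genes. Whether these are the same libraries counted again was not tested. Results with Normal_nasopha, such as those of Bax and Fosl1, are therefore not from an independent normal group. On simulated data with 200 changed genes among 13523, the main test recovered 22% of genes changed by 2 on the log2 scale, 94% at 4 and 100% at 6, and called 0.0921% of unchanged genes. The changed genes were drawn only from genes above a cut on mean count, so these recoveries do not cover genes of low count.

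Named genes were Trp53, Cdkn2a and Myc, the 10 largest called changes in each direction (mean log2 CPM of at least 3, separated ranges, no predicted symbol) and, of each of 39 lists, the 4 members of smallest p, of which not all are described and some are not reported here; other genes were named after their values were seen. The members and lists were chosen with earlier results of these data known. Where a group had no count, folds are bounds against 3 counts over the group, and with 1 to 3 counts ratios carry exact 95% binomial intervals; both cover counting error only. Deviations from group means correlated at 0.0685 and -0.0567 between same-numbered libraries. With 2 Lung-Ctr libraries their deviations mirror each other, so these correlations cannot decide whether libraries are paired. Nothing in the labels pairs the libraries.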

Additional observations from a re-analysis of the deposited data

How the results depend on the processing

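The number of genes called against the comparator depended on the setting, with 168 (66 higher, 102 lower) as reported. DESeq2 called 3118 (1268 higher, 1850 lower), the unfiltered fit 691 (309 higher, 382 lower), the 13-library fit 3861 (1858 higher, 2003 lower), the length and GC correction 31 (15 higher, 16 lower) and Normal_nasopha in place of the comparator columns 1340 (685 higher, 655 lower). RLE factors called 83 higher and 116 lower. Leaving out 1 library gave 0 to 791 called, 0 to 436 higher and 0 to 355 lower. It was 0 without Lung-Ctr replicate 1, comparator replicate 2 or comparator replicate 3, 63 without Lung-Ctr replicate 2 and 791 without comparator replicate 1. With the replicate block, 0 genes were called, 0 higher and 0 lower, with 1 residual degree of freedom and a smallest adjusted p of 0.268. Nothing in the labels pairs these libraries by number. The cause of these shifts was not tested. All 168 genes kept their direction under each setting but Normal_nasopha and the length and GC correction, where 155 of 158 and 162 of 162 tested did. Lung-Ctr minus Ctr gave 0 genes as reported, 27 by DESeq2, and 0 to 15 on leaving out 1 library, with 15 without Lung-Ctr replicate 2; the replicate block and the other settings gave 0. Of the genes named in the text, 88 were followed through every setting, and none of these changed sign. Most of the 88, like the 168, were picked for small p or large change in the same libraries. Their kept direction is therefore no independent check. Others named in the text, such as Krt5, Trp63, Krt8 and Isg15, were not among the 88. The medians of 39 lists over all settings gave 468 values, of which 419 moved by less than the spread between replicates. All 39 did so with RLE factors, DESeq2, no filter and the 13-library fit. Without Lung-Ctr replicate 1, 14 of the 39 moved further, and without replicate 2, 8 did. With 2 Lung-Ctr libraries, changes of 2 on the log2 scale were mostly missed in the simulation, so uncalled genes are not shown to be unchanged.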
